A study of Mus musculus with 9 samples.

Results

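The genes described here are 10 genes of the MHC class I antigen presentation pathway in 4T1 cells: the heavy chains H2-K1 and H2-D1, the light chain B2m, the peptide transporter genes Tap1 and Tap2, the loading factor gene Tapbp, the immunoproteasome subunit genes Psmb8, Psmb9 and Psmb10, and Nlrc5. They were chosen by name for their place in the pathway, and all 10 were found among the 24421 genes of the count table. All 10 also passed the filter on low counts, as did 12575 genes in total.

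RNA-seq was performed on 9 libraries of 4T1, a mouse mammary carcinoma line derived from a BALB/c mouse, in 3 groups of 3 libraries. The groups were 3D cultures without extra palmitate (0 µM added), 3D cultures with 75 µM extra palmitate and 2D cultures with the same amount. Each was grown for 5 days. Per the paper, palmitate was added on top of serum, so 0 µM refers to added palmitate alone. Per the methods, cells of 3D cultures were plated on a base of soft agar and palmitate was given coupled to albumin, with the carrier alone in cultures without it. All groups are 1 unmodified cell line, without immune cells, and a 2D culture without extra palmitate was not analysed here. The labels do not say whether the 3 libraries of a group came from separate cultures, although the methods speak in general of biological replicates for the statistics, so p-values measure the spread between these libraries, which may be technical. The first comparison asks how the class I genes differ between 3D and 2D cultures given the same extra palmitate. The second asks how they differ between 3D cultures with and without extra palmitate. Both comparisons share the 3D libraries with extra palmitate.

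As background, nearly every nucleated cell displays class I molecules, in which a polymorphic heavy chain and beta-2-microglobulin hold a short peptide from the cell's own proteins, and cytotoxic T cells read this peptide. The proteasome cuts the proteins, and in the immunoproteasome its catalytic subunits Psmb6, Psmb7 and Psmb5 are replaced by Psmb9, Psmb10 and Psmb8, respectively. The transporter formed by Tap1 and Tap2 carries peptides into the endoplasmic reticulum, where tapasin, the product of Tapbp, helps to load them. Interferon raises most of these genes, in part through the transcription factor IRF1 and through Nlrc5, a coactivator that acts at the promoters of class I genes.

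The promoters of the heavy and light chain genes are shown because regulators of the pathway are known to act there. Promoter sequences were taken from RefSeq (build GRCm38.p6) for the 8 of 10 genes that matched its table, Tap2 and Nlrc5 being the other two. In the lines below, the capitals mark, from left to right where present, a κB motif (GGGNNTTCC), an interferon response core (TTTCNNTTC), the core of the X2 box (TGACG) and the Y box (ATTGG). The stretches lie on chromosome 17 at chr17:34000354-34000463 on the minus strand (H2-K1) and chr17:35262918-35263027 on the plus strand (H2-D1), and on chromosome 2 at chr2:122147604-122147643 on the plus strand (B2m), all upstream of the RefSeq start.
H2-K1: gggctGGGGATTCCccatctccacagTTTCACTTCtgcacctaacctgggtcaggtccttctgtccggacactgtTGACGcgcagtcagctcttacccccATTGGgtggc
H2-D1: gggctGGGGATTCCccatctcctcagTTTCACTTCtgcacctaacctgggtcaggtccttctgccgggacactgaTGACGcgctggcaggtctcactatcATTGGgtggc
B2m: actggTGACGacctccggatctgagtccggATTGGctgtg

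The H2-K1 and H2-D1 stretches were equal at 99 of 110 bases (90.0%), and the TGACG and ATTGG letters stood at the same spacing in all 3 genes, with 20 bases between them. This spacing was taken from these promoters after they had been viewed. Searched on both strands, TGACG occurred in 20.8% of 32851 promoters of 300 bases and ATTGG in 37.4%, while the 2 at this spacing occurred in 31 promoters (0.0944%), which belong to 27 genes. The κB motif was found in 5.82% of promoters and the interferon response core in 7.52%. Among the 8 genes searched, these latter motifs were found in H2-K1 and H2-D1, and the letters TTCNNNGAA (the GAS motif, in 8.30% of promoters) in Psmb8. The promoters searched follow RefSeq starts. Those of Tapbp, Psmb8 and Psmb9 lie inside the gene bounds of GENCODE vM21, as does the H2-D1 stretch. Motif matches are a description of the letters and no binding was measured.

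Tap1 and Psmb9 are shown as well because they are transcribed in opposite directions from starts with 225 bases between them in RefSeq, whereas their transcripts overlap at the starts in GENCODE vM21. The region between the RefSeq starts, which lies inside the GENCODE vM21 bounds of Psmb9, is chr17:34187331-34187555, printed on the plus strand. The Psmb9 start is to its left and the Tap1 start to its right. Its capitals mark a Y box read on the minus strand and the core of an X2 box.
Tap1 and Psmb9: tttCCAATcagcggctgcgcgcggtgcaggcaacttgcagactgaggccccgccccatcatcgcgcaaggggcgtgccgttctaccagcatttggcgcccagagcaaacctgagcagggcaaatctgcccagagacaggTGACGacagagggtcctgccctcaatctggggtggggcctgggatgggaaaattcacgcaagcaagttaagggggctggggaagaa

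Total counts per library ranged from 6595514 to 31177756, and the smallest library was replicate 3 of the 3D cultures with extra palmitate. Levels are given as CPM, the counts of a gene scaled to a common library size after TMM normalisation. The 8 epithelial markers summed to 5117.8 to 5178.3 CPM in 3D and 5030.4 to 5289.7 CPM in 3D with extra palmitate. In 2D with extra palmitate they summed to 3971.1 to 4294.3 CPM. With extra palmitate, 5 of the 8 were called higher and 2 lower in 3D than in 2D (edgeR, adjusted p under 0.05). Among all genes tested, 34.5% were called higher and 33.9% lower. Of 18 leukocyte markers, 15 had fewer than 20 counts in every library, and Cd3e of T cells and Adgre1 of macrophages had 0 counts in all 9. The 4 leukocyte markers tested were all called in this comparison, 1 higher and 3 lower in 3D (Cd68, Coro1a and Cd14). The 18 leukocyte markers summed to 14.3 to 15.8 CPM in 3D, 18.2 to 20.9 CPM in 3D with extra palmitate and 35.4 to 40.9 CPM in 2D with extra palmitate, with Cd68 as the most abundant. Fibroblast markers, of which Pdgfra was the most abundant, summed to 92.5 to 107.8, 94.4 to 111.3 and 61.5 to 63.9 CPM in the same order, but of the 4 tested, Pdgfra was the 1 that was higher in 3D than in 2D with extra palmitate (98.8 against 30.4 CPM), and Postn (0.825 against 29.1 CPM), Col1a2 and Col1a1 were lower. The part of these other markers in the results was not tested.

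All 10 class I genes were expressed in each library. Per length of the longest coding transcript, B2m stood highest, at 739.1 ± 6.71 CPM per kb in 3D cultures with extra palmitate (SD, n = 3). H2-K1 at 125.1 ± 21.3 and H2-D1 at 123.1 ± 19.8 CPM per kb followed, and these 2 did not differ beyond their spread. Other choices of transcript were not tried. Tapbp (66.7 ± 6.44), Psmb8 (33.1 ± 2.41), Psmb10 (20.4 ± 3.84) and Tap2 (11.8 ± 1.02 CPM per kb) came next. Tap1 (8.26 ± 0.908), Psmb9 (6.76 ± 0.654) and Nlrc5 (5.13 ± 0.254 CPM per kb) were lowest. Thus the scaffold molecules of the class I complex were far more abundant as transcripts than the transporter, the immunoproteasome subunits and the coactivator.

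The class I genes differed between 3D and 2D cultures in a mixed manner. In the presence of extra palmitate, 6 of the 10 were higher in 3D (H2-K1, B2m, Tap1, Tapbp, Psmb8 and Psmb9), 1 was lower (Psmb10), and 3 did not pass the test (H2-D1, Tap2 and Nlrc5), judged by the quasi-likelihood test of edgeR at a Benjamini-Hochberg adjusted p of 0.05 over all 12575 genes. Of all genes tested, 68.3% were called in this comparison, 34.5% higher and 33.9% lower in 3D. Hence a count of 7 called genes is near the background, while the 6 to 1 split in direction is described without a test. The median log2 fold change of the 10 genes was 0.24, against 0.01 for all genes tested, and no fold change exceeded 1.58.

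**Figure D1:**
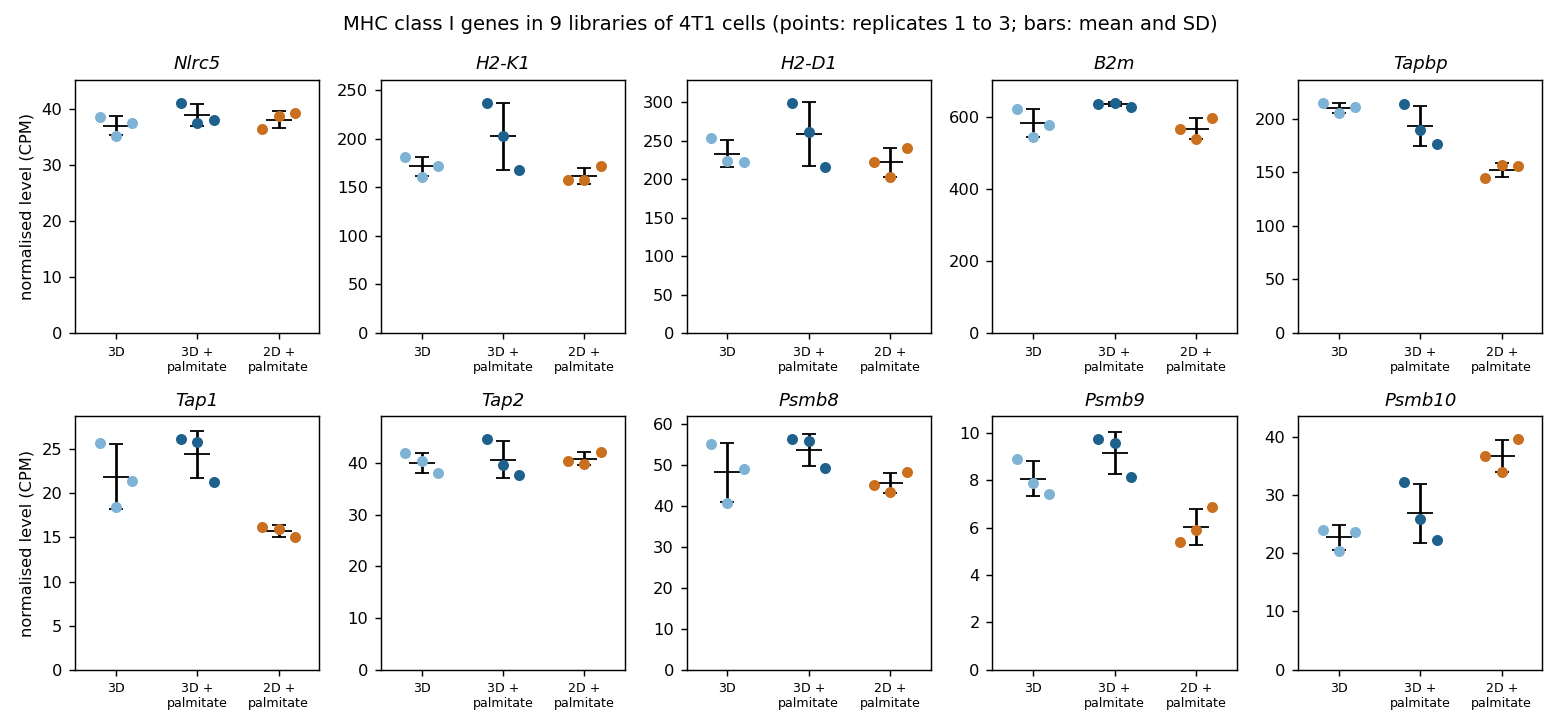
Normalised levels (CPM, linear axes from 0) of the 10 class I genes in each of 9 libraries, with points for replicates 1 to 3 and bars for mean and SD. Tap1, Tapbp and Psmb9 lie higher in all 6 libraries of 3D cultures than in the 3 of 2D cultures, and Psmb10 lies lower.

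Nlrc5, on chromosome 8 (chr8:94434356-94527272 in the GENCODE vM21 annotation), showed 36.4, 38.7 and 39.3 CPM in 2D and 41.1, 37.5 and 38.1 CPM in 3D with extra palmitate. Its 3D libraries without extra palmitate had 38.5, 35.1 and 37.5 CPM. The levels of the coactivator overlapped among all groups, and 3D differed from 2D by a log2 fold change of 0.03 (95% interval -0.12 to 0.18, edgeR adjusted p = 0.70). This call changed with the processing: when the counts were corrected for GC content and transcript length, an alternative added after seeing the data, Nlrc5 was lower in 3D by a log2 fold change of -0.40 (adjusted p = 3.17e-05). Nlrc5 has the longest transcript of the 10 genes, at 7578 bases, and the parts of GC content and length were not separated.

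H2-K1 (chr17:33996017-34000347), a classical heavy chain gene, showed 157.0, 157.4 and 171.4 CPM in 2D with extra palmitate, 237.0, 202.4 and 168.0 CPM in 3D with extra palmitate, and 181.3, 161.1 and 172.2 CPM in 3D without. The palmitate-treated 3D libraries spread widely, and the lowest of them fell within the 2D range. H2-K1 was higher in 3D than in 2D by 1.26-fold (log2 fold change 0.33, SE 0.098, edgeR adjusted p = 0.00772), and by a log2 fold change of 0.20 (adjusted p = 0.0371) when the highest library, replicate 1 of the 3D cultures with extra palmitate, was left out.

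H2-D1 (chr17:35262730-35267499), the other classical heavy chain gene, showed 222.6, 202.8 and 240.0 CPM in 2D, 299.2, 260.7 and 216.1 CPM in 3D with extra palmitate and 253.3, 222.9 and 222.6 CPM in 3D without. Its libraries followed the order of H2-K1 within the palmitate-treated 3D group, and the groups overlapped. 3D exceeded 2D by a log2 fold change of 0.23 (SE 0.102, 95% interval 0.01 to 0.45) with an edgeR adjusted p of 0.0577, so it was not called. When replicate 3 of the palmitate-treated 3D cultures was left out it was 0.34 (adjusted p = 0.000837), whereas it was 0.11 (adjusted p = 0.288) without replicate 1 of that group and 0.16 (adjusted p = 0.231) without replicate 2 of the 2D cultures, and after correction for GC content and length 0.30 (adjusted p = 0.000118).

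Counts of the 2 heavy chains are not fully separate measurements. Of the 50-base windows of the H2-K1 transcript, 138 of 1570 (8.79%) also occur in another gene, most often in H2-D1, and 294 of 2053 windows of H2-D1 (14.32%) also occur elsewhere, most often in H2-Q1. The reference genome is from C57BL/6 mice, whose class I alleles differ from those of BALB/c, and the effect on where reads were counted was not tested. H2-L, a heavy chain that BALB/c mice carry and C57BL/6 mice lack, had 0 counts in all libraries. Since the reference comes from a strain that lacks this gene, its 0 counts do not show whether it was expressed.

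B2m (chr2:122147686-122153083), the invariant light chain, showed 567.5, 538.5 and 598.5 CPM in 2D, 637.8, 640.0 and 629.1 CPM in 3D with extra palmitate, and 624.0, 546.2 and 578.2 CPM in 3D without. Its palmitate-treated 3D libraries lay close together and above all libraries of both other groups. The gain over 2D was nevertheless small, at 1.12-fold (log2 fold change 0.16, SE 0.0641, edgeR adjusted p = 0.0358), and it missed the threshold with the block on replicate number (adjusted p = 0.0528) and without 3D replicate 3, 3D with palmitate replicate 1 or 2, or 2D replicate 1 or 2 (adjusted p up to 0.167). B2m has the lowest GC content (41.2%) and the shortest transcript (860 bases) of the 10, and after correction for GC content and length its log2 fold change was 0.49.

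The 2 chains of the transporter differed from each other. Tap1 (chr17:34187553-34197225) showed 16.2, 16.0 and 15 CPM in 2D, 26.1, 25.8 and 21.3 CPM in 3D with extra palmitate and 25.7, 18.5 and 21.4 CPM in 3D without. Every 3D library exceeded every 2D library, and the 1.58-fold rise (log2 fold change 0.66, SE 0.116, edgeR adjusted p = 0.000153) was the greatest among the 10 genes. Tap2 (chr17:34203527-34216321) showed 40.5, 39.9 and 42.2 CPM in 2D, 44.6, 39.6 and 37.8 CPM in 3D with extra palmitate and 42.0, 40.4 and 38.1 CPM in 3D without. Its groups overlapped, and the log2 fold change was 0.01 (95% interval -0.15 to 0.17, adjusted p = 0.915), with a sign that turned under several alternatives.

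Tapbp (chr17:33915899-33929292), which encodes tapasin, showed 144.8, 156.4 and 155.5 CPM in 2D, 213.4, 189.7 and 176.6 CPM in 3D with extra palmitate and 214.9, 205.6 and 210.5 CPM in 3D without. The 6 libraries of 3D cultures all lay above the 2D range, and the highest group mean was that without extra palmitate. Tapbp rose 1.27-fold in 3D over 2D with extra palmitate (log2 fold change 0.35, SE 0.0715, edgeR adjusted p = 0.000557).

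The immunoproteasome subunits split. Psmb8 (chr17:34197721-34201454) had 45.1, 43.5 and 48.3 CPM in 2D, 56.3, 55.9 and 49.3 CPM in 3D with extra palmitate and 55.1, 40.8 and 49.1 CPM in 3D without. The palmitate-treated 3D libraries lay just above those of 2D, and those without extra palmitate reached below them. Its rise of 1.19-fold (log2 fold change 0.25, SE 0.097, edgeR adjusted p = 0.0328) no longer passed when replicate 1 or 2 of either group was left out (adjusted p up to 0.126).

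Psmb9 (chr17:34181987-34187764) was the least expressed of the 3 subunits, with 5.38, 5.89 and 6.86 CPM in 2D, 9.72, 9.57 and 8.12 CPM in 3D with extra palmitate and 8.88, 7.88 and 7.43 CPM in 3D without. Like its neighbour Tap1, whose annotated start it overlaps on the other strand, it was higher in every 3D library than in any 2D library. Because the strand setting of the counting is not known, reads from this overlap could have been assigned to either gene or left out. Psmb9 rose 1.53-fold (log2 fold change 0.61, SE 0.127, edgeR adjusted p = 0.000625).

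Psmb10, on chromosome 8 (chr8:105935735-105938444), went the other way, with 36.6, 34.0 and 39.5 CPM in 2D, 32.2, 25.9 and 22.2 CPM in 3D with extra palmitate and 24, 20.3 and 23.7 CPM in 3D without. Every 3D library was below every 2D library. Psmb10 fell by 0.41 on the log2 scale (SE 0.113, edgeR adjusted p = 0.00526), and by 0.23 after correction for GC content and length (adjusted p = 0.0101).

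**Figure D2:**
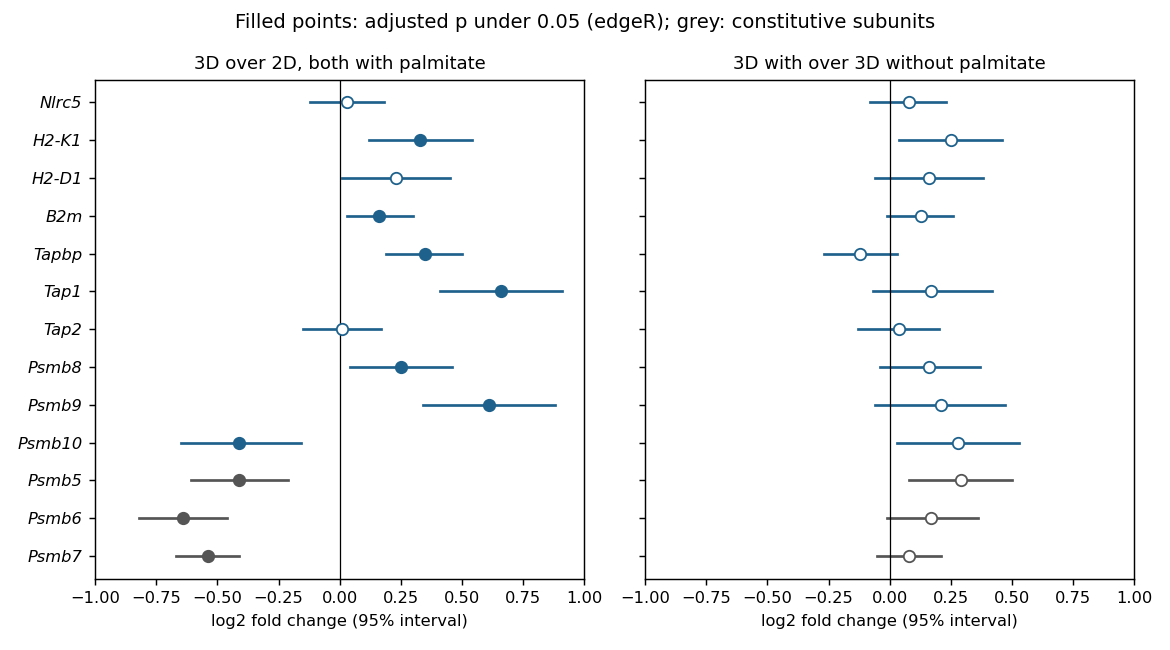
Log2 fold changes with 95% intervals from edgeR for the 10 class I genes (blue) and the constitutive proteasome subunits (grey), for 3D over 2D cultures with extra palmitate and for 3D cultures with over without extra palmitate, where filled points have an adjusted p under 0.05. In the first comparison Tap1 (0.66) and Psmb9 (0.61) lie farthest to the right and Psmb6 (-0.64) farthest to the left, and in the second no point is filled.

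By groups, 5 of the 10 genes had all 3 palmitate-treated 3D libraries above the 2D libraries (B2m, Tap1, Tapbp, Psmb8 and Psmb9) and 1 had them below (Psmb10). Such a lack of overlap was found for 69.4% of all genes tested, 34.6% above and 34.8% below. With the 3D libraries without extra palmitate added, 3 genes stayed above 2D (Tap1, Tapbp and Psmb9) and Psmb10 stayed below, where 65.2% of all genes had no overlap, 32.4% above and 32.8% below. The shares of the class I genes separated by culture type, 6 of 10 and 4 of 10, were thus not above those of genes at large.

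The constitutive catalytic subunits that the immunoproteasome subunits replace were all lower in palmitate-treated 3D cultures than in 2D. Psmb5 had 39.7, 39.7 and 42.9 CPM in 2D and 33.5, 31.1 and 25.7 CPM in 3D with extra palmitate. Psmb6 had 170.7, 158.1 and 175.8 CPM in 2D and 116.8, 112.6 and 91.1 CPM in 3D, and Psmb7 had 179.3, 166.6 and 175.0 against 121.2, 113.5 and 123.0 CPM. For none of the 3 genes did these groups overlap. Psmb5 fell by 0.41 (SE 0.0937, edgeR adjusted p = 0.00134), Psmb6 by 0.64 (SE 0.0851, adjusted p = 1.02e-05) and Psmb7 by 0.54 on the log2 scale (SE 0.0603, adjusted p = 1.73e-06). After correction for GC content and length they were still called, at smaller log2 fold changes of -0.14, -0.33 and -0.32. The decline of Psmb10 thus ran beside that of the subunit it replaces, whereas Psmb8 and Psmb9 moved against theirs.

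The balance of each pair was next measured within libraries, as the log2 ratio of its counts with a pseudocount of 0.5, which needs no scaling between libraries. The log2 ratio of Psmb8 to Psmb5 was 0.18, 0.13 and 0.17 in 2D, 0.75, 0.85 and 0.94 in 3D with extra palmitate and 1.00, 0.83 and 0.98 in 3D without. The ratio of Psmb9 to Psmb6 was -4.98, -4.74 and -4.67 in 2D, -3.59, -3.55 and -3.48 in 3D with extra palmitate and -3.50, -3.60 and -3.59 in 3D without. In both pairs the 3D libraries lay well apart from the 2D libraries and close to each other. How often ratios of other gene pairs separate in this way was not measured. Among single genes, 65.2% separated all 6 3D libraries from 2D. These ratios also restate the changes of the single genes given above. The log2 ratio rose by 0.68 (SE 0.0557), or 1.60-fold, for Psmb8 to Psmb5 and by 1.26 (SE 0.0975), or 2.40-fold, for Psmb9 to Psmb6. Each reached p = 0.10 in a two-sided exact permutation test, the smallest p that 3 against 3 libraries allow, and an adjusted p of 0.30 over the 6 tests of this family.

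The third pair did not show this. The log2 ratio of Psmb10 to Psmb7 was -2.29, -2.29 and -2.15 in 2D, -1.91, -2.13 and -2.47 in 3D with extra palmitate and -2.23, -2.50 and -2.22 in 3D without. The groups overlapped, with a difference of 0.07 (SE 0.168, exact permutation p = 0.70, adjusted p = 0.70) between 3D and 2D cultures with extra palmitate. Per length of the longest coding transcript, Psmb8 and Psmb5 did not differ beyond their spread in 3D cultures with extra palmitate (33.1 ± 2.41 and 33.5 ± 4.40 CPM per kb). By this measure Psmb9 was far below Psmb6 (6.76 ± 0.654 against 133.9 ± 17.3 CPM per kb), and Psmb10 below Psmb7 (20.4 ± 3.84 against 102.8 ± 4.34 CPM per kb).

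**Figure D3:**
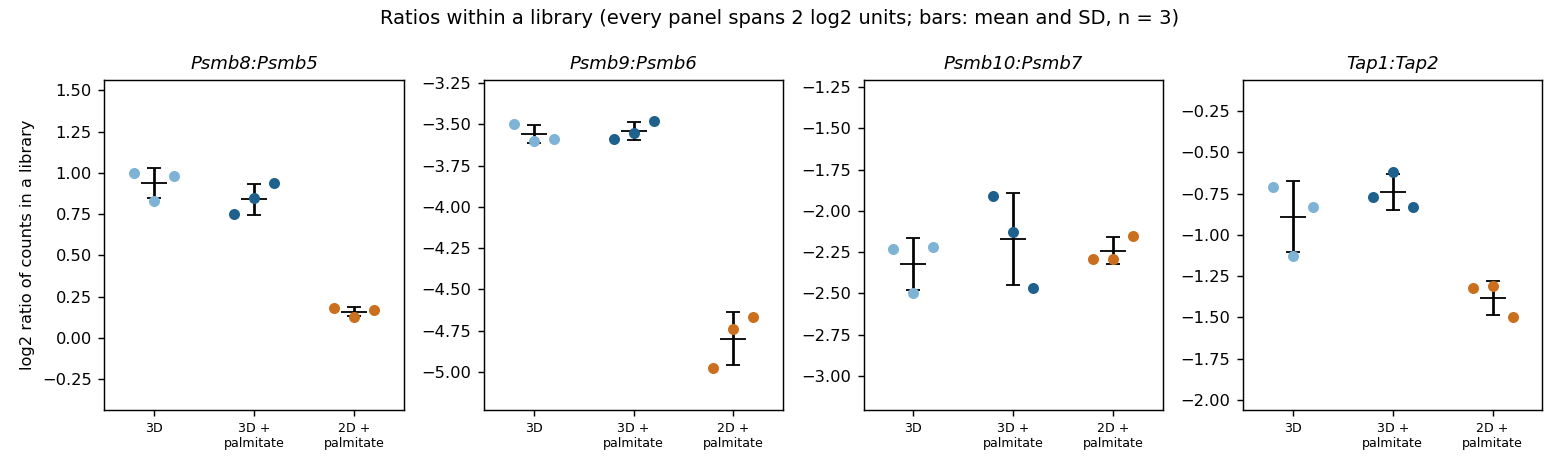
Log2 ratios of counts within each library for the 3 immunoproteasome subunits over the constitutive subunits they replace and for Tap1 over Tap2, with points for replicates 1 to 3 and bars for mean and SD. Each panel spans 2 log2 units, and the 2D libraries lie below all 6 libraries of 3D cultures in every panel but that of Psmb10 and Psmb7.

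The transporter was also uneven by this measure. The log2 ratio of Tap1 to Tap2 was -1.32, -1.31 and -1.50 in 2D, -0.77, -0.62 and -0.83 in 3D with extra palmitate and -0.71, -1.13 and -0.83 in 3D without. All 3D libraries lay above those of 2D, by 0.64 on average with extra palmitate (SE 0.0861, exact permutation p = 0.10, adjusted p = 0.267 over 8 tests). The log2 ratio of H2-D1 to H2-K1 was slightly lower in 3D cultures with extra palmitate (0.34, 0.36 and 0.36) than in both 2D cultures (0.50, 0.37 and 0.49) and 3D cultures without it (0.48, 0.47 and 0.37). The difference was -0.10 against 2D (SE 0.0443) and -0.09 against 3D (SE 0.0365), each with an exact permutation p of 0.10 and an adjusted p of 0.267. The ratios of either heavy chain to B2m overlapped between these groups (exact permutation p = 0.40 for H2-K1 and 0.70 for H2-D1). Thus the 3D and 2D libraries were apart in the balance of the transporter chains and overlapped in that of heavy to light chain. Neither had an adjusted p under 0.05, and how often other gene pairs separate was not measured.

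Extra palmitate gave no called change of the class I genes in 3D cultures. Between 3D cultures with and without extra palmitate, 0 of the 10 genes were called by edgeR and 0 by DESeq2, where edgeR called 2.19% of all genes tested, 1.38% higher and 0.811% lower. At an unadjusted p under 0.05 there were 2 of 10, H2-K1 and Psmb10, against 17.3% of all genes. The fitted change was above 0 for 9 of 10 genes, with a median log2 fold change of 0.16 against 0.01 for all genes tested, but these 10 values rest on the same libraries and are not independent. B2m alone had groups that did not overlap, as did 18.6% of all genes, 10.4% above and 8.19% below.

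For H2-K1 the log2 fold change with palmitate was 0.25 (SE 0.098, 95% interval 0.04 to 0.46, edgeR adjusted p = 0.209), and for Psmb10 it was 0.28 (SE 0.118, interval 0.03 to 0.53, adjusted p = 0.239). Those of H2-D1 (0.16), B2m (0.13), Tap1 (0.17), Psmb8 (0.16) and Psmb9 (0.21) had intervals that included 0, as had Tap2 (0.04) and Nlrc5 (0.08). Tapbp had the sole negative value (-0.12, interval -0.27 to 0.03, adjusted p = 0.423). The constitutive subunits Psmb5 (0.29, adjusted p = 0.141), Psmb6 (0.17) and Psmb7 (0.08) were not called either.

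This result rested on 1 library more than on the others. Replicate 1 of the 3D cultures with extra palmitate was the highest of its group for 9 of the 10 genes and replicate 3, the smallest library, the lowest for 9. In 3D cultures without extra palmitate, replicate 1, which had the most counts, was the highest for 10 of 10 genes. The 2D cultures did not follow their depth, since replicate 3 was highest for 8 genes and the deepest library, replicate 2, lowest for 5. The part of depth in these orders was not tested. Without replicate 3 of the palmitate-treated 3D cultures, 3 genes were called with palmitate, namely H2-K1 (log2 fold change 0.36, edgeR adjusted p = 0.00377), H2-D1 (0.27, adjusted p = 0.0294) and Psmb10 (0.37, adjusted p = 0.0222), and the number called among all genes rose from 275 to 1901. After correction for GC content and length, H2-K1 was higher (0.20, adjusted p = 0.0233) and Tapbp lower (-0.15, adjusted p = 0.0464) with palmitate.

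Across the 9 libraries, log2 CPM of H2-K1 went most closely with that of H2-D1 among the 10 genes (Pearson's r = 0.94). B2m and Psmb8 (r = 0.92) and the neighbours Tap1 and Psmb9 (r = 0.89) also moved together, and Tapbp and Psmb10 moved oppositely (r = -0.70). Outside the 10 genes, those most like H2-K1 among 9316 genes with a mean of at least 10 CPM were Tpgs1 (r = 0.965), Slc2a1 (0.963), Klhl21 (0.962), Ost4 (0.959) and Rab5c (0.957). These correlations describe 9 libraries in 3 groups that also differ in depth.

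Genes that supply and load peptides beside the 10 were called in both directions, beside 34.5% higher and 33.9% lower among all genes tested. Of 18 such genes, all tested, 10 were higher and 5 lower in 3D against 2D cultures with extra palmitate (median log2 fold change 0.20). Tapbpl, a tapasin-related peptide editor, had 11.3, 15.6 and 15.7 CPM in 2D and 32.2, 33.5 and 30.9 CPM in 3D with extra palmitate, without overlap (log2 fold change 1.15, SE 0.102, edgeR adjusted p = 1.59e-07). Uggt1, which senses misfolded glycoproteins in the endoplasmic reticulum, rose by a log2 fold change of 0.93 (adjusted p = 1.87e-08). After correction for GC content and length this was 0.44. Thop1, a cytosolic peptidase that degrades peptides, was lower (-0.95, adjusted p = 2.88e-08), at 59.0 ± 5.40 against 115.2 ± 1.24 CPM (SD, n = 3). No gene of this list was called with palmitate by edgeR, where 2.19% of all genes were. At an unadjusted p under 0.05 there were 3 of 18, against 17.3% of all genes. After correction for GC content and length, 2 were called higher, among them Thop1 (0.21, adjusted p = 0.0275).

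**Figure D4:**
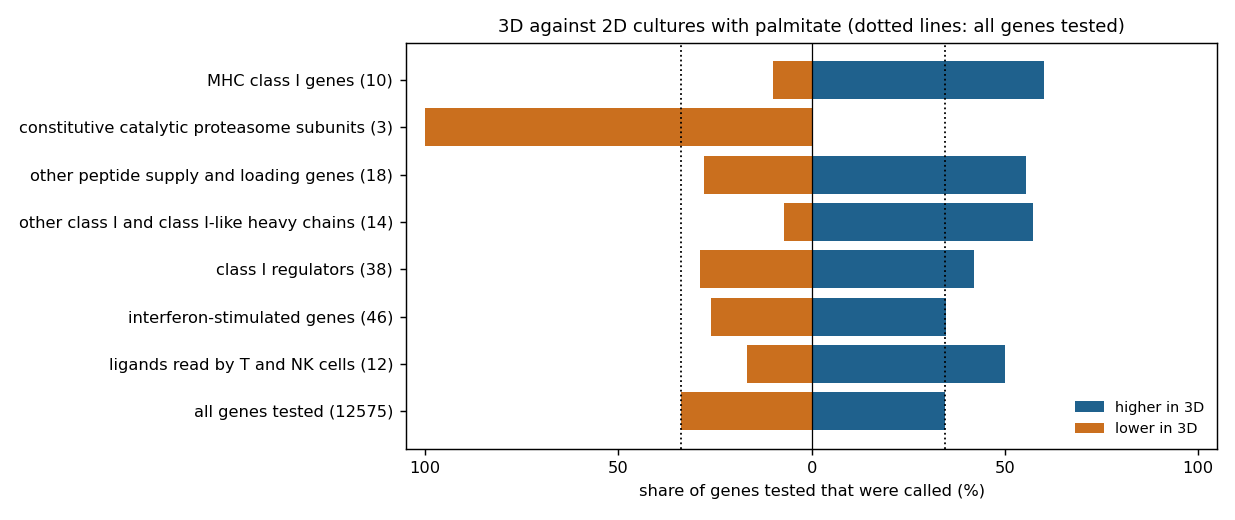
Share of the genes tested in each list (number in parentheses) that were called higher (blue) or lower (orange) in 3D than in 2D cultures with extra palmitate, with dotted lines at the shares for all genes tested, 34.5% and 33.9%. The interferon-stimulated genes lie close to the dotted line for higher genes, and the 3 constitutive subunits are all lower.

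Other class I and class I-like heavy chains were higher more often than lower. Of 27 listed genes, 9 had no counts (H2-L among them), 14 were tested, 8 were higher in 3D and 1 was lower. Among all genes tested, 34.5% were higher and 33.9% lower. The median log2 fold change was 0.39, against 0.01 for all genes tested, and the split in direction is described without a test. H2-T23, the non-classical heavy chain that presents leader peptides of other class I chains to NK cells, had 19.2, 19.6 and 19.4 CPM in 2D, 32.3, 34.5 and 32.6 CPM in 3D with extra palmitate and 40.2, 37.0 and 38.4 CPM in 3D without. Its 3 groups did not overlap, with a log2 fold change of 0.77 in 3D over 2D (SE 0.072, edgeR adjusted p = 2.79e-07) and of -0.22 with palmitate (adjusted p = 0.118), which became -0.29 (adjusted p = 0.0152) after correction for GC content and length. Cd1d1, which presents lipids to NKT cells, rose by a log2 fold change of 1.19 (adjusted p = 1.05e-06) from 4.20 ± 0.593 to 9.57 ± 1.03 CPM. H2-Q10 rose by 0.63 (adjusted p = 6.08e-06), although its reads may be shared with other class I genes.

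H2-M3, which presents formylated peptides, was the 1 gene of this list that was lower, and it was named after its values were seen. It had 15.3, 12.8 and 13.1 CPM in 2D and 9.97, 8.74 and 9.19 CPM in 3D with extra palmitate (log2 fold change -0.53, edgeR adjusted p = 0.000993). Its promoter also held TGACG and ATTGG with 20 bases between them, as those of H2-K1, H2-D1 and B2m did, and is shown for this opposite direction (chr17:37270128-37270222, plus strand, capitals as above for the strand of the gene, with a further Y box on the opposite strand left in lower case).
H2-M3: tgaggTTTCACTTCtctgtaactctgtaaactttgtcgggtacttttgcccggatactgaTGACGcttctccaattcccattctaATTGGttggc

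Of the 27 genes with this spaced pair, 22 were tested, 7 were higher and 9 lower in 3D (median log2 fold change -0.02). Among all genes tested, 34.5% were higher and 33.9% lower. Genes with the spaced letters were thus called in both directions, as were genes at large.

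The regulators of the class I genes were called in both directions, as were genes at large (34.5% higher and 33.9% lower among all genes tested). Of 38 listed, 16 were higher and 11 lower in 3D against 2D cultures with extra palmitate (median log2 fold change 0.14). Jak2, a kinase of the interferon gamma receptor, had 61.9, 57.6 and 54.0 CPM in 2D and 198.6, 216.5 and 268.9 CPM in 3D with extra palmitate (log2 fold change 1.98, SE 0.101, edgeR adjusted p = 4.74e-10). Irf8, a transcription factor of the interferon regulatory family, rose by 1.50 (adjusted p = 7.36e-09) and Stat3, a transcription factor downstream of interleukin 6, by 0.99 (adjusted p = 1.57e-08, 0.62 after correction for GC content and length). These 3 regulators were named for the smallest p in this comparison. They were higher in every 3D library than in 2D, as were 32.4% of all genes tested.

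Irf1, a known activator of the class I genes that was named after its values were seen, was lower in 3D. Irf1 had 107.8, 108.3 and 120.1 CPM in 2D and 68.0, 66.8 and 70.1 CPM in 3D with extra palmitate (log2 fold change -0.72, adjusted p = 1.93e-07). No regulator was called with palmitate by edgeR, where 2.19% of all genes were. At an unadjusted p under 0.05 there were 3 of 38, against 17.3% of all genes.

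Interferon-stimulated genes were also called in both directions, 16 of 46 tested genes higher and 12 lower in 3D against 2D cultures with extra palmitate. Among all genes tested, 34.5% were higher and 33.9% lower. The median log2 fold change was 0.16, against 0.01 for all genes tested. Oasl1, an interferon-induced gene of the oligoadenylate synthetase family, had 53.6, 51.5 and 55.4 CPM in 2D, 12.7, 14.3 and 10.6 CPM in 3D with extra palmitate and 6.85, 6.91 and 7.11 CPM in 3D without. Its 3 groups were fully separate, with a log2 fold change of -2.07 in 3D against 2D (SE 0.0903, edgeR adjusted p = 8.95e-11) and of 0.87 with palmitate (SE 0.108, adjusted p = 0.00092). Rsad2, which encodes the antiviral protein viperin, and Samhd1, which depletes nucleotides, were lower in 3D as well (-2.53, adjusted p = 5.17e-09, and -0.91, adjusted p = 1.57e-07). Ifit1, an antiviral RNA-binding protein gene, was the other gene of the list called with palmitate, with 5.86, 4.39 and 5.37 CPM without and 7.29, 7.82 and 8.58 CPM with it (log2 fold change 0.56, SE 0.130, adjusted p = 0.0423). These 2 of 46 genes stand beside 2.19% called among all genes tested, and 13 of 46 had an unadjusted p under 0.05, against 17.3% of all genes.

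Finally, the position of the genes was considered, since 7 of the 10 lie on chromosome 17. Within 200 kb on each side of the Tap1 start there were 26 genes, of which 12 were tested. In 3D against 2D cultures with extra palmitate, 6 were higher (H2-K1, Col11a2, H2-DMa, Tap1, Psmb9 and Psmb8) and 3 were lower (H2-Ke6, Slc39a7 and Rxrb), beside 34.5% higher and 33.9% lower among all genes tested. Tap2, whose start is 15974 bases from that of Tap1, was not called. With palmitate, edgeR called 0 of the 12, where it called 2.19% of all genes tested. The 12 include H2-K1, Tap1, Tap2, Psmb8 and Psmb9 themselves. Outside the 10 class I genes, Col11a2 and H2-DMa were called higher and H2-Ke6, Slc39a7 and Rxrb lower between 3D and 2D. The called neighbours thus included genes of both directions, and the part of position in these values was not tested.

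**Figure D5:**
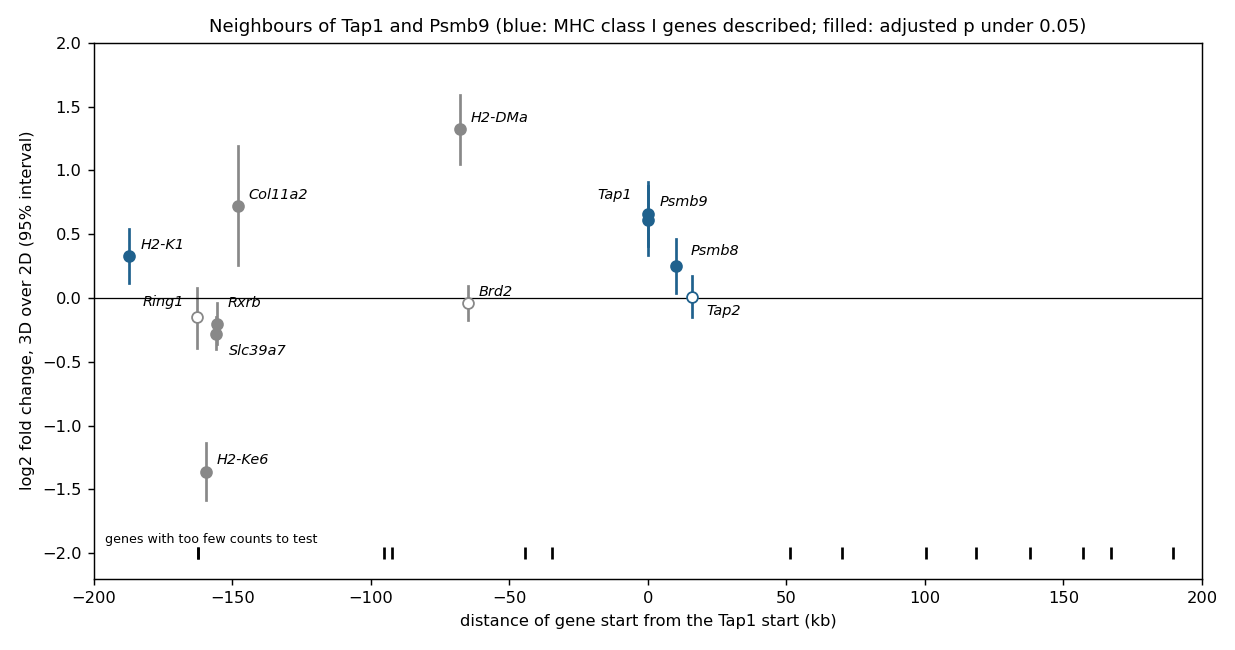
Log2 fold changes with 95% intervals of 3D over 2D cultures with extra palmitate for the 12 tested genes within 200 kb of the Tap1 start, by the distance of their starts, with class I genes in blue and filled points for an adjusted p under 0.05. Tap1 (0.66) and Psmb9 (0.61) lie almost on the same point, while H2-Ke6 lies far below 0, and ticks near the bottom mark genes with too few counts.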

How the data were processed

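The submitters' processing notes and the methods name fastq-mcf, FastQC 0.11.9, HISAT2 2.1.0 (GRCm38) and HTSeq-count for 50 bp single-end reads, and the authors deposited raw counts per gene. The annotation release and strand setting of the counting are not given in the sources used here. Rn45s took 1.77% to 5.38% of counts. Libraries were grouped by their labels. Counts were normalised with TMM and filtered with filterByExpr in edgeR 4.0.16 (R 4.3.3), and 1 quasi-likelihood model with group as the term was fitted to all 9 libraries. Standard errors were obtained as |log2 fold change| over the square root of the F statistic. Genes were matched to GENCODE vM21 by symbol (23376) or synonym (656) for length and GC content. Both were taken from the longest protein-coding transcript of a gene, or from its longest transcript where none was coding. Ratios were compared by exact permutation tests (scipy 1.17.1). Alternatives were RLE or library size scaling, no filter, a minimum of 10 counts per library, a fit to the groups compared, a block on replicate number, DESeq2 1.42.0, other pseudocounts in ratios and each library left out. A correction for GC content and length (offsets from splines with 4 degrees of freedom in each library) was added after seeing the data. The edgeR fit was tested on simulated data.

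The 10 genes and the lists were chosen with earlier results of these data known. Named genes were the 10, the constitutive catalytic subunits, in each other list the 3 genes with the smallest p among those called in a comparison (for marker lists, those most abundant), and the 5 genes most correlated with H2-K1. Irf1 and H2-M3 fall outside this rule, as do Cd274, Icam1, Pvr, Postn, Col1a2 and Col1a1. One item is not reported here. Depth limits the precision of weakly expressed genes such as Psmb9, which had 53 counts in the smallest library.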

Additional observations from a re-analysis of the deposited data

How the results depend on the processing

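For 3D against 2D cultures with extra palmitate, leaving out 1 library at a time gave 5 to 8 called class I genes, 4 to 7 higher and 1 lower each time. The number called among all genes was 7977 to 8866 in these fits, against 8594 in the main fit. Correction for GC content and length gave 9 class I genes, with 7 higher and 2 lower (Psmb10 and Nlrc5). The number among all genes with that correction is not given, so the 9 is not set against a background. H2-K1, Tap1, Tapbp, Psmb9 and Psmb10 were called in the same direction under every alternative run. B2m also missed the threshold with library size scaling (adjusted p = 0.0601) and no filter (0.115), and H2-D1 passed it with no filter (0.0169) and without 2D replicate 3 (0.0379), with a range of 0.11 to 0.34 over the fits that left out 1 library. The fitted change of Tap2 turned to -0.0026 with library size scaling, -0.02 with no filter, -0.0044 with the replicate block and -0.10 after correction for GC content and length, with a range of -0.07 to 0.05 over the fits that left out 1 library. Nlrc5 turned to -0.40 with that correction and ranged from -0.02 to 0.06.

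With palmitate in 3D, 0 to 3 class I genes were called with 1 library left out (0 to 3 higher), and 2 with that correction, 1 higher and 1 lower. The number among all genes was 617 with no filter, 77 with the compared groups alone, 111 with the replicate block, 994 with that correction and 71 to 1901 with 1 library left out (1901 without replicate 3 of the 3D cultures with palmitate, 71 without replicate 3 of those without it), against 275. Of these, 62.9% were higher, or 46.7% with library size scaling and 52.7% with no filter. In the other comparison 50.4% of calls were higher, or 42.4% with that correction. Tap2 turned to -0.00024 with that correction and ranged from -0.05 to 0.08.

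With that correction, the log2 ratio changed to 0.52 for Psmb8 to Psmb5, 1.09 for Psmb9 to Psmb6, -0.17 for H2-D1 to H2-K1, -0.02 for H2-K1 to B2m and -0.19 for H2-D1 to B2m between 3D and 2D, and to -0.02 for H2-D1 to B2m with palmitate. With 1 library left out, ratios that changed sign ranged from -0.05 to 0.22 (Psmb10 to Psmb7) and -0.06 to 0.17 (H2-D1 to B2m) between 3D and 2D, and with palmitate from -0.0037 to 0.06 (Psmb9 to Psmb6), -0.02 to 0.22 (H2-K1 to B2m) and -0.09 to 0.13 (H2-D1 to B2m). The causes were not tested. Libraries with the same number correlated at -0.24 to 0.15 in their deviations from the group means, and others at -0.17 to 0.28, so the numbers were not taken as pairs. The block left 6 class I genes called between 3D and 2D, and 0 with palmitate.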

Other observations

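Of 12 listed class II genes, 9 had fewer than 20 counts in every library and 2 were tested. These moved apart between 3D and 2D cultures with extra palmitate. H2-DMa, a subunit of the editor that loads class II molecules, had 4.22, 4.32 and 4.77 CPM in 2D and 12.1, 10.7 and 9.80 CPM in 3D (log2 fold change 1.32, SE 0.125, edgeR adjusted p = 3.24e-07). Cd74, the invariant chain, had 21.8, 19.2 and 20.4 CPM in 2D and 11.6, 11.0 and 12.1 CPM in 3D (log2 fold change -0.82, SE 0.108, adjusted p = 9.72e-06). The groups did not overlap for either gene, as for 69.4% of all genes tested. Neither was called with palmitate by edgeR, and 1 had an unadjusted p under 0.05, against 17.3% of all genes.

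Among the ligands that T and NK cells read, 12 of 23 listed were tested, 6 were higher and 2 lower (Icam1 and Pvr) in 3D against 2D cultures with extra palmitate, beside 34.5% higher and 33.9% lower among all genes tested. Ulbp1, a ligand of the activating NK receptor NKG2D, had 11.9, 15.1 and 11.5 CPM in 2D and 46.0, 54.5 and 56.7 CPM in 3D (log2 fold change 1.99, SE 0.114, edgeR adjusted p = 1.76e-09). Cd47, the signal that restrains phagocytes, rose from 104.2 ± 3.11 to 179.8 ± 0.669 CPM (SD, n = 3, log2 fold change 0.79, adjusted p = 2.76e-08, or 0.52 after correction for GC content and length). Vtcn1, which encodes the inhibitory ligand B7-H4, had 0.0827, 0.032 and 0.0 CPM in 2D and 1.99, 2.66 and 3.22 CPM in 3D. Cd274, which encodes PD-L1, was named after its values were seen, as were Icam1 and Pvr, at 4.22, 4.00 and 4.50 CPM in 2D and 4.23, 4.10 and 2.30 CPM in 3D with extra palmitate (log2 fold change -0.14, 95% interval -0.55 to 0.26, adjusted p = 0.519). None of the 12 was called by edgeR with palmitate, where 3 had an unadjusted p under 0.05, against 17.3% of all genes.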
